A study of Mus musculus with 6 samples.

Results

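DOT1L High cells were compared with NT cells of the same mouse acute myeloid leukemia, over 4 of the 6 RNA-seq libraries of the study. All cells carried KMT2A-MLLT3, in which the methyltransferase KMT2A is fused to the chromatin reader MLLT3. Marrow of moribund leukemic mice was transduced with DOT1L, and populations of low and of high expression were sorted. Cells were kept in DMEM with 10% FBS, mIL3, mIL6 and mSCF and collected 3 days after the sort. The labels give 1 NT, 1 DOT1L Low and 1 DOT1L High library to each of the numbers K3117 and K3174, which are called leukemias here. The labels do not expand NT, and whether NT cells were transduced or sorted is not stated, so handling and DOT1L cannot be told apart between the groups. Nothing states that the K numbers stand for separate mice, and if they do not, the p-values cover only differences among these libraries, whose spread may be technical. Pairs of values below give K3117 and then K3174, in CPM (counts relative to a library size scaled by TMM factors), and a log2 difference is DOT1L High minus NT with its standard error.

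DOT1L methylates lysine 79 of histone H3 along the bodies of transcribed genes. MLLT3 is known to bring DOT1L and the elongation machinery to chromatin, and its fusion to KMT2A keeps a progenitor program of homeobox genes active. As such cells mature along the myeloid lineages, granule genes and receptors of chemoattractants, microbial products and cytokines are known to come on. The genes below lie mostly outside the granule genes and the best known fusion targets.

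Total counts of the 4 libraries were between 22908445 and 32136251. Dot1l itself, counted over the mouse gene, was at 128 and 158 CPM in NT and 149.8 and 136 CPM in DOT1L High. The groups overlapped, and the log2 difference was -0.00 ± 0.15 (adjusted p = 1), so the counts of this gene do not separate the labels. Whether reads of the introduced DOT1L align to the mouse gene is not given in the sources used here. In bulk RNA, fewer cells of a type and less RNA per cell cannot be told apart.

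Markers of other cell types were summed per library. T and NK cell markers were below 1 CPM in all 4 libraries, with 5 of 12 at 0 (Cd3e, Trbc1, Trbc2, Cd8a and Ncr1) and none abundant enough to be tested. B cell markers summed to 11.9 and 17.3 CPM in NT and 12.1 and 11.5 CPM in DOT1L High, with 3 of 9 at 0, Ms4a1 and Blk among them. Stromal and endothelial markers summed to 19.3 and 17.2 CPM and then 11.4 and 15.4 CPM, with 5 of 11 at 0 (Col1a2, Col3a1, Lum, Tek and Cxcl12). Erythroid markers summed to 19.4 and 7.31 CPM and then 10.1 and 9.39 CPM, with Hbb-bt called lower (not without DOT1L High K3117, adjusted p = 0.43). The mature macrophage list summed to 60.2 and 39.7 CPM in NT and to 174.1 and 115.4 CPM in DOT1L High, with 3 of 10 markers at 0 (C1qa, C1qc and Timd4) and Adgre1, Marco and Vcam1 called higher. The dendritic cell list summed to 73.2 and 62.4 CPM in NT and to 32.5 and 22.4 CPM in DOT1L High, with Cd209a at 0 and Siglech, Cox6a2 and Flt3 called lower. Most of that fall was Flt3, from 33.5 and 27.2 to 0.711 and 0.337 CPM. Siglech and Cox6a2 were at most 2.83 CPM in any library, and Bst2, Ccr9 and Xcr1 were tested and not called. Markers of myeloid leukemia cells were far more abundant, at 2144 and 2519 CPM against 3583 and 5004 CPM. The part of these cell types in the results below was not tested.

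Of 15812 genes tested, 2741 (17.3%) passed an adjusted p of 0.05 in the quasi-likelihood test of edgeR, in which the leukemia was a replicate block. In DOT1L High 1583 genes (10.0%) were higher and 1158 (7.32%) were lower, so 57.8% of the calls were higher. That split was 49.1% higher with library sizes alone and 43.9% with upper quartile factors. The median gene stood at -0.01 on the log2 scale, against -0.07 and -0.11 under those scalings. At least 2-fold differences were found for 744 higher and 699 lower genes, and at least 8-fold for 112 and 123. Among the calls, 2739 had the same direction in both leukemias, with a median log2 CPM difference of 0.86 in K3117 and 1.03 in K3174 for higher genes and of -1.16 and -1.23 for lower genes. The groups did not overlap for 2519 of the called genes, beside 7999 of all genes tested (50.6%). Without the replicate block 493 genes passed, 354 higher and 139 lower. Leaving out NT K3117 gave 2338 higher and 2056 lower genes, and leaving out DOT1L High K3174 gave 1028 and 899. Granule genes and fusion targets of the excluded lists made up 49 of the higher and 21 of the lower calls. Of protein-coding genes alone, 12.1% were higher and 8.85% lower, and the counts of several lists below lie near these shares.

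**Figure D1:**
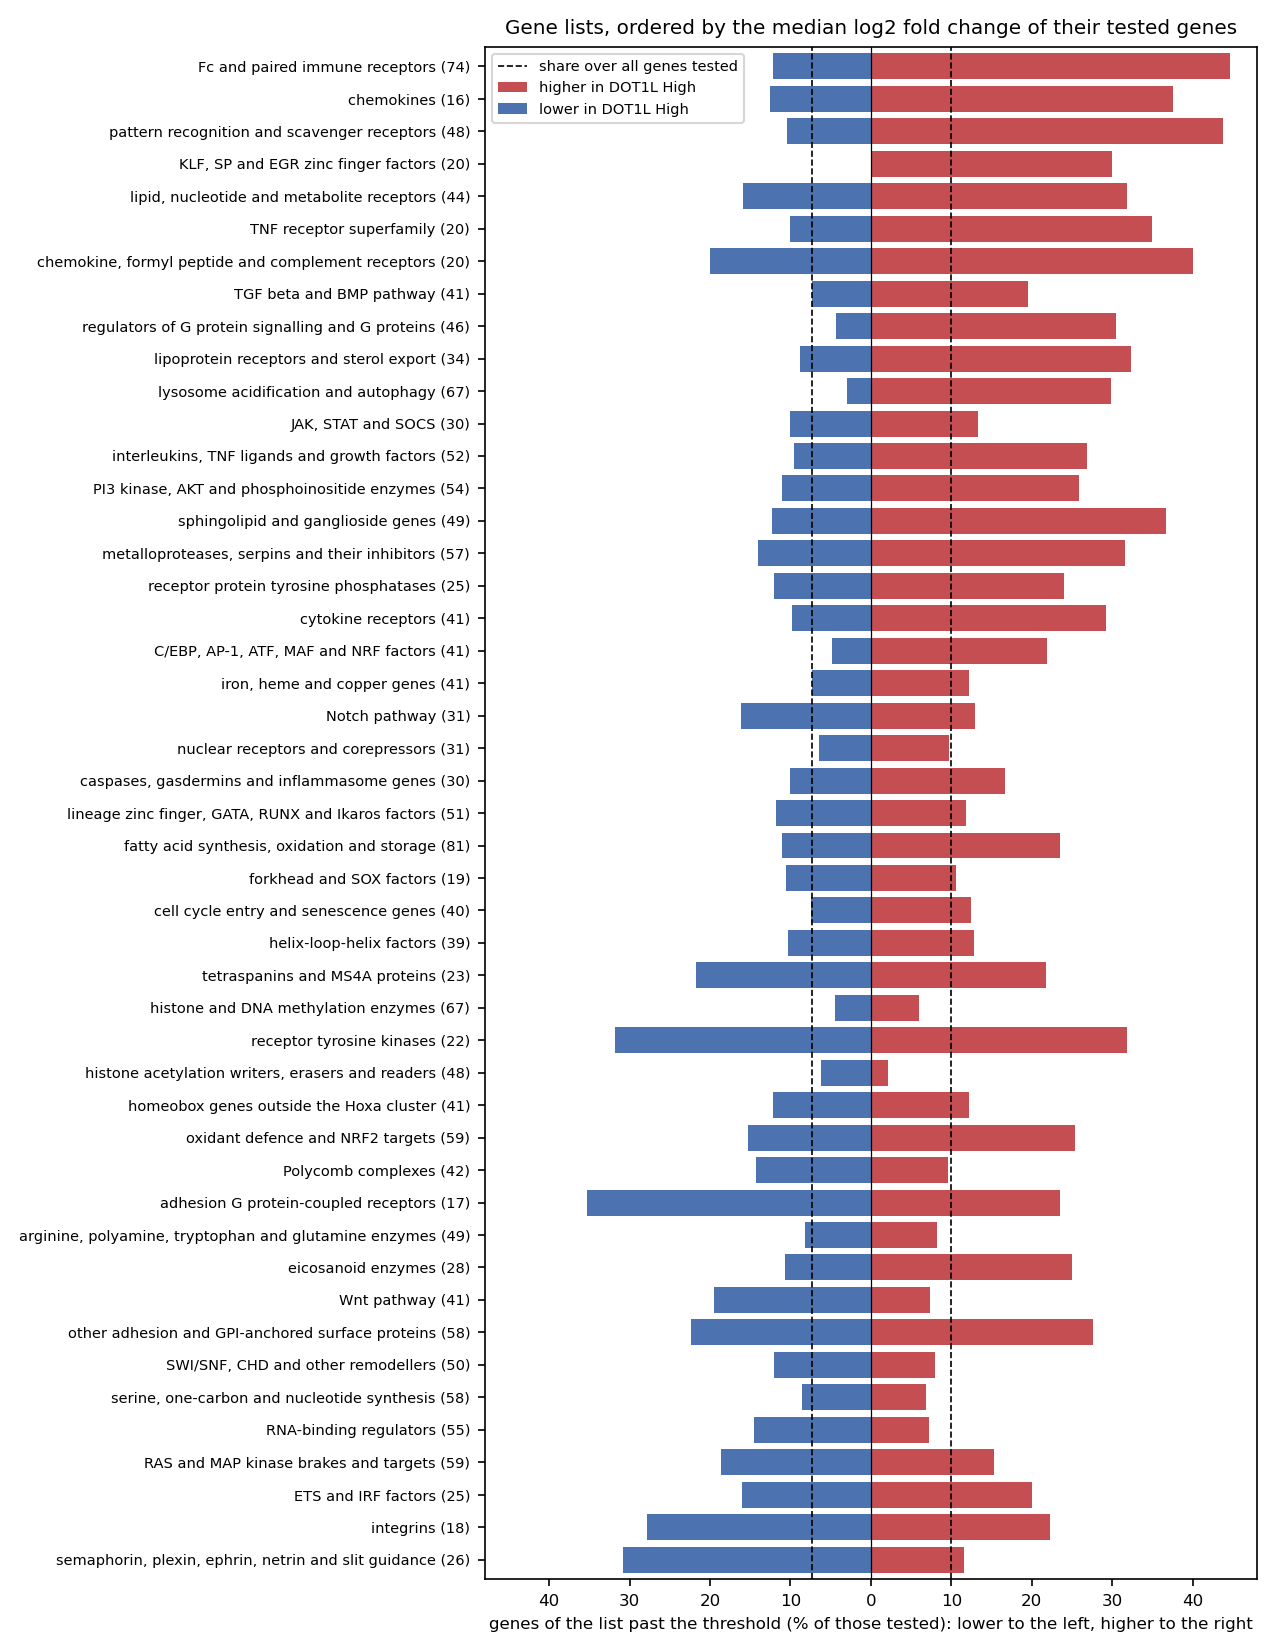
Share of the gene lists shown that was higher (to the right) or lower (to the left) in DOT1L High, in percent of its members tested, for lists of at least 15 tested genes ordered by median log2 difference. Dashed lines mark the shares over all genes tested, 10.0% higher and 7.32% lower.

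Outside the excluded lists, the largest increases included genes of the membrane and the extracellular matrix. Olfml2b, an olfactomedin domain protein of the matrix at chr1:170644532-170682789, was at 2.41 and 2.63 CPM in NT and 40.6 and 53.6 CPM in DOT1L High, a log2 difference of 4.20 ± 0.19 (adjusted p = 5.5e-07). Prom1, the pentaspan surface protein CD133 at chr5:43993620-44102032, was at 1.11 and 4.16 CPM in NT and 26.8 and 61.4 CPM in DOT1L High (log2 4.20 ± 0.22, adjusted p = 6.6e-07). Both genes were low in NT of either leukemia, and no DOT1L High library came near an NT library. Peli2, an E3 ubiquitin ligase of Toll-like receptor signalling, was at 1.02 and 3.24 CPM in NT and 16.5 and 32.1 CPM in DOT1L High (log2 3.64 ± 0.25, adjusted p = 2.9e-06). Mapk13, the delta isoform of p38, was at 0.541 and 1.09 CPM in NT and 13.5 and 46.8 CPM in DOT1L High (log2 5.09 ± 0.27, adjusted p = 6.6e-07). Lin28a, which blocks the maturation of let-7 microRNAs, was at 6.16 and 6.43 CPM in NT and 15 and 29.4 CPM in DOT1L High, a smaller change of 1.76 ± 0.23 (adjusted p = 0.00023). Among the largest decreases were Tns1, the focal adhesion protein tensin 1, at 99.4 and 57.9 CPM in NT and 12.5 and 6.36 CPM in DOT1L High (log2 -3.09 ± 0.18, adjusted p = 1.0e-06). Mrvi1, a substrate of cGMP-dependent kinase, was at 22.2 and 9.72 CPM in NT and 3.65 and 0.774 CPM in DOT1L High (log2 -3.08 ± 0.31, adjusted p = 4.4e-05). NT and DOT1L High did not overlap for either. Afm, the vitamin E carrier afamin, was at 20.2 and 1.23 CPM in NT and 1.96 and 0.236 CPM in DOT1L High (log2 -3.12 ± 0.30, adjusted p = 3.2e-05). It fell within each leukemia, while the groups overlapped because K3174 was low throughout. Without the replicate block, Olfml2b, Mapk13 and Lin28a also passed, and the calls of Prom1, Peli2, Tns1, Mrvi1 and Afm were lost (adjusted p between 0.051 and 0.34).

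Receptors of chemoattractants rose more often than they fell. For chemokine, formyl peptide and complement receptors, 8 rose and 4 fell of 20 tested (1 and 0 without the replicate block, 3 rose and 2 fell with genes of at least 5 CPM only), with a median log2 difference of 0.35. C5ar1, the receptor of the complement fragment C5a at chr7:16246743-16259540, was at 1.05 and 1.53 CPM in NT and 14.6 and 17.7 CPM in DOT1L High, a log2 difference of 3.66 ± 0.24 (adjusted p = 2.2e-06). Fpr2 and Fpr1 bind formylated peptides of bacteria and mitochondria. Fpr2 was at 3.97 and 2.06 CPM in NT and 20.5 and 12.3 CPM in DOT1L High (log2 2.47 ± 0.21, adjusted p = 1.7e-05). Fpr1 was at 2.47 and 1.53 CPM in NT and 9.07 and 4.75 CPM in DOT1L High (log2 1.77 ± 0.27, adjusted p = 0.00080). In all 3 genes every DOT1L High library was above every NT library. Cxcr4, the receptor of CXCL12, was at 60.3 and 90.2 CPM in NT and 74 and 114 CPM in DOT1L High and was not called (log2 0.32 ± 0.13, adjusted p = 0.13). C5ar1 passed without the replicate block too, and the calls of Fpr2 and Fpr1 were lost (adjusted p between 0.064 and 0.16).

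Receptors of lipids and metabolites were divided. Of the lipid, nucleotide and metabolite receptors, 14 rose and 7 fell of 44 tested (2 and 0 without the replicate block, 9 rose with genes of at least 5 CPM only), with a median log2 difference of 0.41. Ffar2, a receptor of short-chain fatty acids, was at 2.32 and 2.32 CPM in NT and 18.5 and 24.3 CPM in DOT1L High, a rise of 3.17 ± 0.23 (adjusted p = 4.6e-06). Ptger3, a receptor of prostaglandin E2, was at 2.32 and 6.61 CPM in NT and 24.4 and 23.9 CPM in DOT1L High (log2 2.61 ± 0.30, adjusted p = 0.00011). Ptgir, the prostacyclin receptor, rose from 18.6 and 12.3 to 47.7 and 29.8 CPM. The lysophospholipid receptors split, as Lpar1, a receptor of lysophosphatidic acid, was at 7.13 and 4.77 CPM in NT and 1.11 and 0.337 CPM in DOT1L High (log2 -3.15 ± 0.34, adjusted p = 6.7e-05). S1pr3, a receptor of sphingosine 1-phosphate, was at 7.16 and 5.56 CPM in NT and 1.69 and 2.59 CPM in DOT1L High (log2 -1.54 ± 0.29, adjusted p = 0.0030), while S1pr4 rose from 9.92 and 16.4 to 22.6 and 34.3 CPM. No pair of NT and DOT1L High values overlapped for Ffar2, Ptger3, Lpar1, S1pr3 or S1pr4. Among adhesion G protein-coupled receptors, 4 rose and 6 fell of 17 tested (1 and 0 without the replicate block, 3 fell without DOT1L High K3174, 3 fell by DESeq2), with a median log2 difference of -0.05. Adgrg1, also known as GPR56, fell from 304 and 242 to 118 and 79.5 CPM, and Adgre1, the macrophage antigen F4/80, rose from 39.1 and 27.8 to 91.5 and 68.7 CPM. The fit without the replicate block also called Ffar2 and Adgre1, and the calls of Ptger3, Ptgir, Lpar1, S1pr3, S1pr4 and Adgrg1 were lost (adjusted p between 0.063 and 0.14).

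Promoter windows of genes in the groups described next are printed to show where a match of the C/EBP core motif lies. C/EBP factors drive granulocyte and monocyte genes, and Cebpb and Cebpd are described further on. Cebpa, among the markers of myeloid leukemia cells above, was at 111 and 109.7 CPM in NT and 136 and 118 CPM in DOT1L High. It was not called. The windows run from 250 bases before to 50 bases after the start of the gene, 5′ to 3′ on the gene's strand, from RefSeq on GRCm38.p6, and capitals mark the match of TTGCNNAA, searched on both strands. They were chosen after the matches were seen. Clec12a encodes an inhibitory lectin receptor, Il1rl2 the receptor of interleukin 36 and Slfn2 a Schlafen protein.
Clec12a, chr6:129349994-129350293, plus strand, match from base -140: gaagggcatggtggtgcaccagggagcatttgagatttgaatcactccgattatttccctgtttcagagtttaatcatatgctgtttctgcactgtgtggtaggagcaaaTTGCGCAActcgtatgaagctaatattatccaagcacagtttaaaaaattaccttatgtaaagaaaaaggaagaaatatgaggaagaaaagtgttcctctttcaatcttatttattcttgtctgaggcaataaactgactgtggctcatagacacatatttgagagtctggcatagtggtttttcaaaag
Il1rl2, chr1:40324339-40324638, plus strand, match from base -124: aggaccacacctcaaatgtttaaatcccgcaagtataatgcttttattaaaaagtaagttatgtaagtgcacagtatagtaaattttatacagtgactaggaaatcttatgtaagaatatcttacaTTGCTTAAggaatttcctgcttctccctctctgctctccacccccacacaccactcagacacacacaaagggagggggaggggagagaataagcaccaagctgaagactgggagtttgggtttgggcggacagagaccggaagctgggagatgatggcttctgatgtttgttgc
Slfn2, chr11:83064862-83065161, plus strand, match from base -168: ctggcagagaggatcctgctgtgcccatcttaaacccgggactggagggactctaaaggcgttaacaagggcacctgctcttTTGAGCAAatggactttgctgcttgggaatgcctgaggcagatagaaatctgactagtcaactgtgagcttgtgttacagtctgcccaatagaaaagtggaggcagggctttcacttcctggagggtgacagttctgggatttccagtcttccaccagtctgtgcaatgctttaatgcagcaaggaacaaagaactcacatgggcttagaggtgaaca
The motif was present in 8.74% of the 13174 windows of tested genes, in 13.2% of 1581 windows of higher genes and in 8.33% of 1116 windows of lower genes. The core of the interferon response element was in 3.11%, 3.10% and 4.03% of the same windows, and an ETS motif of the PU.1 kind, GAGGAAGT, in 3.43%, 5.0% and 3.05%. All 3 motifs were searched on both strands and counted separately, also where matches overlapped, and windows of neighbouring genes can share bases. A window was found for 10355 of 15811 symbols of tested genes (65.5%). A match is a description of these letters and not evidence of binding.

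Many immune receptors of the activating and inhibitory pairs changed, most of them upward. Of the Fc and paired immune receptors, 33 rose and 9 fell of 74 tested (11 and 3 without the replicate block, 5 fell with genes of at least 5 CPM only), with a median log2 difference of 0.82. Clec12a was at 105 and 116 CPM in NT and 203 and 326 CPM in DOT1L High (log2 1.21 ± 0.16, adjusted p = 0.00026). Clec5a, an activating lectin that signals through DAP12, was at 21.1 and 27.5 CPM in NT and 90.9 and 98.7 CPM in DOT1L High (log2 1.98 ± 0.13, adjusted p = 2.9e-06). Trem1 and Trem3, activating receptors that amplify inflammatory signals, rose from 4.69 and 5.43 to 14.8 and 21.5 CPM and from 12.1 and 16.9 to 47.5 and 65.4 CPM. Clec4a2, a lectin of the DCIR family, rose from 2.53 and 5.08 to 17.4 and 45.4 CPM, and Siglecf, a sialic acid receptor known from eosinophils, from 2.68 and 8.14 to 12.1 and 64.9 CPM. For each of these 6 genes the DOT1L High libraries lay above the NT libraries. Pilrb1 and Pilrb2 also rose, from 1.47 and 1.62 to 13 and 12.5 CPM and from 1.68 and 1.97 to 13.9 and 14.8 CPM, but they are near-identical neighbours and reads may be split between them. Among the receptors that fell, Cd244a, the SLAM family receptor 2B4, was at 42.9 and 39.8 CPM in NT and 10.6 and 11.7 CPM in DOT1L High (log2 -1.89 ± 0.15, adjusted p = 1.0e-05). Milr1, the inhibitory receptor allergin-1, was at 96.8 and 74.2 CPM in NT and 39.2 and 29.7 CPM in DOT1L High (log2 -1.31 ± 0.12, adjusted p = 2.6e-05). Clec10a, a galactose-binding lectin, was at 16.7 and 11.1 CPM in NT and 4.94 and 3.13 CPM in DOT1L High (log2 -1.79 ± 0.21, adjusted p = 0.00014). The groups were apart in all 3. Dropping the replicate block kept the calls of Clec5a, Trem1, Trem3, Pilrb1, Pilrb2, Cd244a and Milr1, and the calls of Clec12a, Clec4a2, Siglecf and Clec10a were lost (adjusted p between 0.098 and 0.22).

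Pattern recognition and scavenger receptors included members of 1 signalling system with opposite directions. In that list 21 rose and 5 fell of 48 tested (7 and 2 without the replicate block, 3 fell with genes of at least 5 CPM only), with a median log2 difference of 0.48. Tlr4, the receptor of lipopolysaccharide, was at 18.2 and 10.3 CPM in NT and 52.6 and 40.2 CPM in DOT1L High, a log2 difference of 1.72 ± 0.19 (adjusted p = 7.6e-05), and its co-receptor Cd14 rose from 27.4 and 16.3 to 97.8 and 30.5 CPM. Cd180, a Toll-like homologue that pairs with Ly86 (MD-1), was at 72 and 84 CPM in NT and 45.7 and 38.6 CPM in DOT1L High (log2 -0.89 ± 0.14, adjusted p = 0.00093). Ly86 was at 49.7 and 67.6 CPM in NT and 28.6 and 27.8 CPM in DOT1L High (log2 -1.04 ± 0.15, adjusted p = 0.00044). So the receptor and its co-receptor rose and both members of the homologous complex fell, with no overlap between NT and DOT1L High in any of the 4 genes. Nlrc5, a regulator of MHC class I genes, fell from 18.8 and 7.22 to 8.36 and 2.66 CPM, where DOT1L High K3117 was above NT K3174. Marco, a scavenger receptor, rose from 15.2 and 8.62 to 52.5 and 19.6 CPM. When the replicate block was left out, Tlr4, Cd180 and Ly86 still passed, and the calls of Cd14, Nlrc5 and Marco were lost (adjusted p between 0.22 and 0.40).

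Receptors known from granulocytes and eosinophils were among the cytokine receptors that rose. In the cytokine receptor list, 12 rose and 4 fell of 41 tested (2 and 1 without the replicate block, 7 fell without NT K3174, 1 fell with genes of at least 5 CPM only), with a median log2 difference of 0.11. Il1rl2 was at 1.08 and 1.49 CPM in NT and 10.4 and 11.8 CPM in DOT1L High, a rise of 3.13 ± 0.27 (adjusted p = 1.4e-05), and its ligand Il1f9, interleukin 36 gamma, was at 3.16 and 2.41 CPM in NT and 22.5 and 21.3 CPM in DOT1L High (log2 2.95 ± 0.26, adjusted p = 1.8e-05). Ligand and receptor were thus both several-fold higher in each leukemia. Csf3r, the receptor of G-CSF, was at 18.6 and 26.8 CPM in NT and 50.2 and 105 CPM in DOT1L High (log2 1.70 ± 0.15, adjusted p = 1.8e-05). Il5ra, the specific chain of the interleukin 5 receptor, was at 0.391 and 0.963 CPM in NT and 3.51 and 7.44 CPM in DOT1L High (log2 3.04 ± 0.33, adjusted p = 6.8e-05). Csf2rb, the shared beta chain of the interleukin 3, interleukin 5 and GM-CSF receptors, was at 187 and 140.03 CPM in NT and 324 and 314 CPM in DOT1L High (log2 0.98 ± 0.13, adjusted p = 0.00029). All NT values were below all DOT1L High values of these genes. Calls that did not need the replicate block were those of Il1rl2 and Il1f9, and the calls of Csf3r, Il5ra and Csf2rb were lost (adjusted p between 0.058 and 0.094).

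Several receptors of the TNF family rose together. Within the superfamily, 7 rose and 2 fell of 20 tested (6 and 0 without the replicate block, 1 fell without NT K3117 or DOT1L High K3117 or DOT1L High K3174, 1 fell with genes of at least 5 CPM only), with a median log2 difference of 0.37. Tnfrsf1a and Tnfrsf1b, the 2 receptors of TNF, were at 62.4 and 69.8 CPM in NT and 115 and 109.5 CPM in DOT1L High (log2 0.77 ± 0.12, adjusted p = 0.0010) and at 67.3 and 52.7 CPM in NT and 133 and 117 CPM in DOT1L High (log2 1.07 ± 0.12, adjusted p = 8.3e-05). Tnfrsf14, the receptor HVEM, rose from 8.30 and 7.13 to 16.7 and 20.4 CPM. The decoy receptor Tnfrsf23 and its neighbour Tnfrsf26 rose from 4.36 and 2.28 to 14.2 and 10.00 CPM and from 6.28 and 6.13 to 15.8 and 26.1 CPM. None of the 5 had overlapping groups. No replicate block was needed for the calls of Tnfrsf1a, Tnfrsf1b, Tnfrsf14 and Tnfrsf26, and the call of Tnfrsf23 was lost (adjusted p = 0.056).

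Integrins changed in opposite directions by subunit. Of this family, 4 rose and 5 fell of 18 tested (2 and 1 without the replicate block, 3 fell with genes of at least 5 CPM only), with a median log2 difference of -0.27. The subunits of Mac-1 rose, with Itgb2 at 229.5 and 238 CPM in NT and 678 and 701 CPM in DOT1L High (log2 1.56 ± 0.12, adjusted p = 6.9e-06). Itgam was at 38.7 and 26.5 CPM in NT and 89.5 and 141 CPM in DOT1L High (log2 1.73 ± 0.28, adjusted p = 0.0012). Itga4, the alpha chain of VLA-4 and of the gut-homing integrin, and Itgb7, the beta chain of the latter, fell, with Itga4 at 526 and 478 CPM in NT and 238 and 231 CPM in DOT1L High (log2 -1.10 ± 0.11, adjusted p = 5.3e-05). Itgb7 was at 65.3 and 138 CPM in NT and 24.6 and 33.1 CPM in DOT1L High (log2 -1.77 ± 0.24, adjusted p = 0.00034). Itga6, a laminin receptor chain, fell from 223 and 181 to 127 and 58.2 CPM. Vcam1, a ligand of Itga4-containing integrins, was at 1.11 and 2.89 CPM in NT and 25.3 and 25 CPM in DOT1L High (log2 3.82 ± 0.36, adjusted p = 2.6e-05), so ligand and receptor chain moved oppositely. NT and DOT1L High were apart in each of these 6 genes. Itgb1, the beta chain of VLA-4, named after its values were seen, was at 398 and 359 CPM in NT and 368 and 286 CPM in DOT1L High and was not called (log2 -0.22 ± 0.12, adjusted p = 0.26). Other adhesion and GPI-anchored proteins were mixed, as 16 rose and 13 fell of 58 tested (4 and 0 without the replicate block, 6 fell with genes of at least 5 CPM only), with a median log2 difference of -0.07. Cd52, a small GPI-anchored glycoprotein, rose from 13.7 and 11.9 to 44.4 and 66.2 CPM, whereas Cd24a fell from 310.3 and 392 to 177 and 240.4 CPM. In the unblocked fit, without the replicate block, Itgb2, Itga4, Vcam1 and Cd52 passed, and the calls of Itgam, Itgb7, Itga6 and Cd24a were lost (adjusted p between 0.055 and 0.18). Itgam had a log2 difference of 1.11 without NT K3174.

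**Figure D2:**
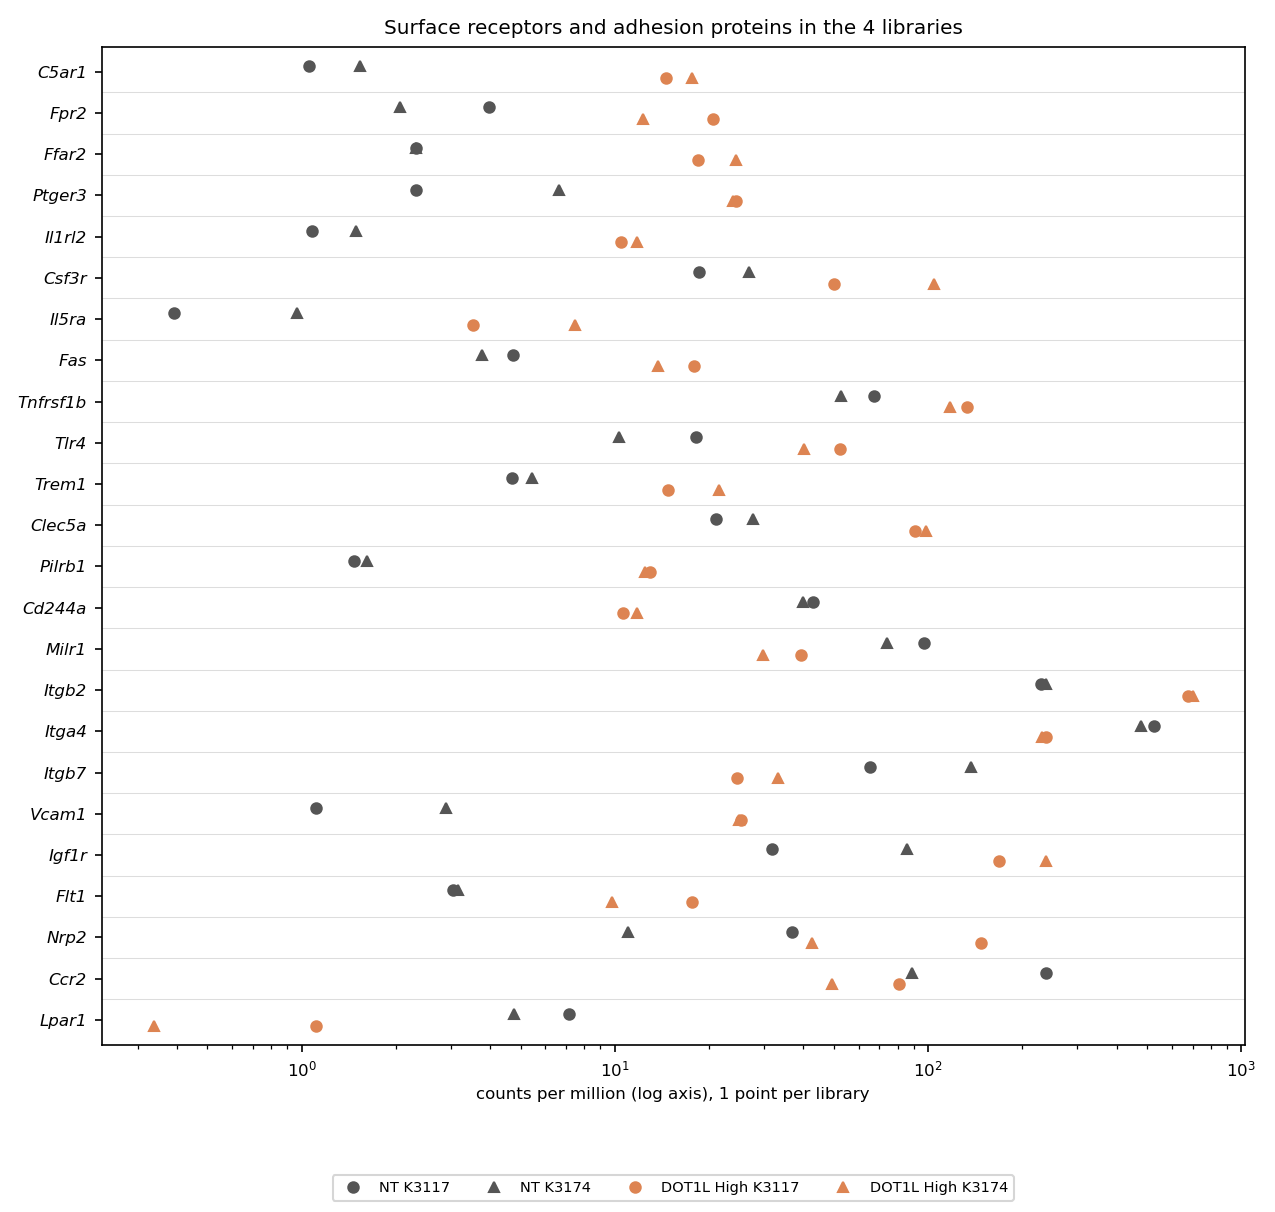
CPM on a log axis for surface receptors and adhesion proteins, 1 gene per line, with grey NT and orange DOT1L High points, circles for K3117 and triangles for K3174. C5ar1, Ffar2 and Vcam1 lie to the right in DOT1L High of both leukemias, and Itga4, Milr1 and Lpar1 to the left.

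Of receptor tyrosine kinases, 7 rose and 7 fell of 22 tested (3 and 1 without the replicate block, 2 fell with genes of at least 5 CPM only), with a median log2 difference of -0.03. Igf1r, the receptor of insulin-like growth factor 1, was at 31.8 and 85.5 CPM in NT and 169 and 239 CPM in DOT1L High (log2 1.93 ± 0.18, adjusted p = 2.8e-05). Flt1, a VEGF receptor, was at 3.04 and 3.15 CPM in NT and 17.7 and 9.76 CPM in DOT1L High (log2 2.13 ± 0.29, adjusted p = 0.00031). Epha7, an ephrin receptor, was at 212 and 107 CPM in NT and 114 and 76 CPM in DOT1L High (log2 -0.70 ± 0.14, adjusted p = 0.0043). Igf1r and Flt1 were higher in every DOT1L High library, while for Epha7 the NT library of K3174 lay below the DOT1L High library of K3117. Of guidance receptors and ligands, 3 rose and 8 fell of 26 tested (1 and 0 without the replicate block, 5 fell without NT K3174 or DOT1L High K3117, 4 fell with genes of at least 5 CPM only, 5 fell by DESeq2), with a median log2 difference of -0.32. Plxnd1, a semaphorin receptor, and Nrp2, a neuropilin co-receptor, rose from 178 and 209 to 344 and 361 CPM and from 36.9 and 11 to 147 and 42.5 CPM, and Sema4a rose from 74.4 and 131 to 176 and 266 CPM. Unc5a, a netrin receptor, and Sema6d fell from 5.14 and 5.87 to 1.16 and 2.02 CPM and from 12.7 and 1.36 to 3.16 and 0.404 CPM. Without the replicate block, Flt1 and Plxnd1 also passed, and the calls of Igf1r, Epha7, Nrp2, Sema4a, Unc5a and Sema6d were lost (adjusted p between 0.067 and 0.48). Epha7 had a log2 difference of -0.46 without NT K3117.

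The Notch pathway showed a receptor and its ligands moving apart. In this list 4 rose and 5 fell of 31 tested (2 and 2 without the replicate block, 3 fell without DOT1L High K3117), with a median log2 difference of 0.07 that was -0.02 with upper quartile factors. Notch1 was at 35.1 and 46.4 CPM in NT and 76.8 and 84.9 CPM in DOT1L High (log2 1.00 ± 0.14, adjusted p = 0.00047). Dtx4, an E3 ligase of the pathway, was at 47.2 and 64 CPM in NT and 110.3 and 137 CPM in DOT1L High (log2 1.16 ± 0.12, adjusted p = 4.5e-05). The ligand Jag2 was at 29 and 21.8 CPM in NT and 4.67 and 2.86 CPM in DOT1L High (log2 -2.79 ± 0.25, adjusted p = 1.8e-05). Dlk1, a non-canonical ligand from an imprinted locus, was at 106 and 236 CPM in NT and 11.2 and 10.8 CPM in DOT1L High (log2 -3.88 ± 0.26, adjusted p = 2.9e-06). These 4 genes had no overlap between groups. Psen2, a catalytic subunit of gamma-secretase, rose from 23.6 and 20.9 to 38.5 and 34.9 CPM. Notch1, Dtx4, Jag2 and Dlk1 passed without the replicate block too, and the call of Psen2 was lost (adjusted p = 0.081).

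Of Wnt pathway genes, 3 rose and 8 fell of 41 tested (0 and 3 without the replicate block, 3 fell with genes of at least 5 CPM only), with a median log2 difference of -0.07. Among frizzled receptors, Fzd8 was at 6.77 and 12 CPM in NT and 1.38 and 1.75 CPM in DOT1L High (log2 -2.55 ± 0.27, adjusted p = 6.4e-05). Fzd1 was at 20.6 and 4.07 CPM in NT and 4.18 and 0.236 CPM in DOT1L High (log2 -2.85 ± 0.35, adjusted p = 0.00017). Fzd4 was at 6.58 and 5.34 CPM in NT and 11.9 and 10.1 CPM in DOT1L High (log2 0.88 ± 0.18, adjusted p = 0.0062). Fzd8 and Fzd4 were apart between groups in opposite directions, and Fzd1 overlapped because NT K3174 was already below DOT1L High K3117. Bcl9l, a co-activator of beta-catenin, fell from 21.8 and 23.7 to 13.4 and 10.1 CPM, and Lgr4, an R-spondin receptor, rose from 6.07 and 14.2 to 19.8 and 22.3 CPM. Ctnnb1, which encodes beta-catenin, was not called (log2 -0.10 ± 0.12, adjusted p = 0.65). Of TGF beta and BMP genes, 8 rose and 3 fell of 41 tested (0 and 1 without the replicate block, 5 rose without DOT1L High K3174, 5 fell without NT K3117, 0 fell with genes of at least 5 CPM only), with a median log2 difference of 0.30. Bmpr1a and Bmpr2, type I and type II receptors of BMPs, rose from 1.14 and 3.68 to 8.18 and 16.9 CPM and from 30.7 and 17.2 to 56.6 and 31.5 CPM, and Fstl1, a follistatin-like secreted protein, from 27.5 and 4.64 to 47.5 and 15.1 CPM. Tgfb1 was not called (log2 0.07 ± 0.15, adjusted p = 0.83). The fit without the replicate block also called Fzd8, and the calls of Fzd1, Fzd4, Bcl9l, Lgr4, Bmpr1a, Bmpr2 and Fstl1 were lost (adjusted p between 0.10 and 0.63). Bcl9l had a log2 difference of -0.61 without NT K3174. Lgr4 had a log2 difference of 0.75 without DOT1L High K3117. Fstl1 had a log2 difference of 1.76 without NT K3117. Fstl1 had a log2 difference of 0.73 without NT K3174.

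Cytoplasmic signalling genes changed in several branches. The JAK, STAT and SOCS list had 13.3% higher and 10.0% lower, near the 12.1% and 8.85% of protein-coding genes tested. In the JAK, STAT and SOCS list, 4 rose and 3 fell of 30 tested (1 and 2 without the replicate block, 8 rose without NT K3117, 2 rose without DOT1L High K3174), with a median log2 difference of 0.20. Jak3, the kinase of common gamma chain receptors, was at 83.5 and 91 CPM in NT and 50.2 and 47.2 CPM in DOT1L High (log2 -0.85 ± 0.14, adjusted p = 0.0014), and the feedback inhibitor Socs2 at 49.2 and 36.9 CPM in NT and 20.5 and 18.7 CPM in DOT1L High (log2 -1.12 ± 0.14, adjusted p = 0.00020). Socs3 went up, from 3.70 and 2.06 to 7.60 and 5.18 CPM, and the kinase Pim2 went down, from 24.6 and 20.6 to 14.5 and 10.6 CPM. NT and DOT1L High did not overlap for any of them. For PI3 kinase, AKT and phosphoinositide genes, 14 rose and 6 fell of 54 tested (4 and 2 without the replicate block, 9 rose without DOT1L High K3174, 11 fell without NT K3117), with a median log2 difference of 0.16. Pik3r6, a regulatory subunit of PI3 kinase gamma, was at 16.3 and 12.7 CPM in NT and 37 and 38.8 CPM in DOT1L High (log2 1.40 ± 0.16, adjusted p = 0.00011). Pik3ip1, an inhibitor of PI3 kinase, was at 44.2 and 44.3 CPM in NT and 18.9 and 17.5 CPM in DOT1L High (log2 -1.28 ± 0.14, adjusted p = 5.8e-05). The catalytic subunit Pik3cb rose from 41.6 and 71.8 to 116 and 128 CPM, and the phospholipase Plcb2, an effector of chemoattractant receptors, from 138 and 152 to 266 and 385 CPM. Akt1 was not called (log2 -0.12 ± 0.14, adjusted p = 0.63). Dropping the replicate block kept the calls of Jak3, Socs2, Pik3r6, Pik3ip1 and Plcb2, and the calls of Socs3, Pim2 and Pik3cb were lost (adjusted p between 0.092 and 0.22).

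Genes of the RAS and MAP kinase routes moved both ways. There 9 rose and 11 fell of 59 tested (3 and 2 without the replicate block), with a median log2 difference of -0.11. Rps6ka2, a kinase downstream of ERK, was at 4.96 and 18.3 CPM in NT and 54.1 and 72.9 CPM in DOT1L High (log2 2.69 ± 0.27, adjusted p = 3.7e-05). Map3k5, the stress kinase ASK1, was at 15.6 and 14.4 CPM in NT and 33.4 and 39.1 CPM in DOT1L High (log2 1.27 ± 0.15, adjusted p = 0.00014). Dusp9, an ERK phosphatase, was at 8.03 and 11.5 CPM in NT and 1.91 and 0.942 CPM in DOT1L High (log2 -2.82 ± 0.34, adjusted p = 0.00013), and Dusp3 and the exchange factor Rasgrf2 fell from 68.3 and 51.2 to 34.7 and 15.3 CPM and from 10.7 and 7.66 to 4.49 and 2.86 CPM. All 5 were apart between groups. Rasal1, a RAS GTPase activating protein of chromosome 5, fell from 4.54 and 5.34 to 0.178 and 0.236 CPM, while Rasgrp4, an exchange factor known from mast cells, rose from 5.41 and 6.87 to 10.7 and 26.6 CPM. When the replicate block was left out, Map3k5, Dusp9 and Rasal1 still passed, and the calls of Rps6ka2, Dusp3, Rasgrf2 and Rasgrp4 were lost (adjusted p between 0.089 and 0.20).

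Among regulators of G protein signalling and G proteins, 14 rose and 2 fell of 46 tested (3 and 0 without the replicate block, 5 rose without DOT1L High K3174, 1 fell without DOT1L High K3117, 1 fell with the 4 libraries alone, 4 fell with library sizes alone, 4 fell with upper quartile factors), with a median log2 difference of 0.29. The arrestins Arrb1 and Arrb2, which end receptor signalling and drive receptor uptake, were at 57.6 and 71.1 CPM in NT and 129.6 and 173 CPM in DOT1L High (log2 1.23 ± 0.12, adjusted p = 2.8e-05) and at 61.7 and 77.4 CPM in NT and 129 and 179 CPM in DOT1L High (log2 1.14 ± 0.13, adjusted p = 8.9e-05). Rhou, an atypical CDC42-like GTPase, was at 6.89 and 8.05 CPM in NT and 36.1 and 43.2 CPM in DOT1L High (log2 2.40 ± 0.19, adjusted p = 7.0e-06). Rnd1, a small GTPase, and Tiam1 and Dock1, which activate RAC, rose from 7.49 and 15.9 to 31.2 and 48.6 CPM, from 55.8 and 103 to 189 and 237 CPM and from 4.84 and 18.1 to 25.7 and 53.7 CPM. The groups did not overlap for any of these 6 genes. Dock6 fell from 16.2 and 16.9 to 8.45 and 5.86 CPM. Of caspases, gasdermins and inflammasome genes, 5 rose and 3 fell of 30 tested (2 and 0 without the replicate block, 11 rose without NT K3117, 3 rose without DOT1L Low K3117 or DOT1L Low K3174, 2 rose without DOT1L High K3174, 1 fell without DOT1L High K3174, 3 rose with the 4 libraries alone, 3 rose with library sizes alone, 3 rose with upper quartile factors), with a median log2 difference of 0.06 that was -0.04 with upper quartile factors. Casp4, a sensor of cytosolic lipopolysaccharide, rose from 15.6 and 13.2 to 30.1 and 32.5 CPM, Mefv, the pyrin inflammasome gene, from 33.6 and 22.1 to 53.5 and 45.7 CPM, and Nlrp10 fell from 19.1 and 14.4 to 8.63 and 4.14 CPM. Calls that did not need the replicate block were those of Arrb1, Arrb2, Rhou and Casp4, and the calls of Rnd1, Tiam1, Dock1, Dock6, Mefv and Nlrp10 were lost (adjusted p between 0.072 and 0.32). Dock6 had a log2 difference of -0.80 without NT K3174.

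Among transcription factors outside the fusion targets, KLF, SP and EGR factors came first, where 6 rose and 0 fell of 20 tested (2 and 0 without the replicate block, 2 fell without NT K3117), with a median log2 difference of 0.43. Sp9 was at 18.8 and 11.6 CPM in NT and 101 and 70.4 CPM in DOT1L High (log2 2.50 ± 0.17, adjusted p = 2.9e-06). Klf3, a repressor, was at 13.1 and 7.62 CPM in NT and 33.8 and 35.7 CPM in DOT1L High (log2 1.75 ± 0.22, adjusted p = 0.00016). Of ETS and IRF factors, 5 rose and 4 fell of 25 tested (1 and 1 without the replicate block, 2 rose without DOT1L High K3117, 3 rose without DOT1L High K3174), with a median log2 difference of -0.16. Spi1, which encodes PU.1, the master factor of myeloid cells, was at 173 and 203 CPM in NT and 312 and 328 CPM in DOT1L High (log2 0.77 ± 0.12, adjusted p = 0.00082). Ets1 was at 41.4 and 18.6 CPM in NT and 102 and 106 CPM in DOT1L High (log2 1.86 ± 0.23, adjusted p = 0.00019). Elf1 was at 398 and 415 CPM in NT and 225 and 224 CPM in DOT1L High (log2 -0.86 ± 0.12, adjusted p = 0.00032). These 5 genes had no overlap. C/EBP, AP-1 and related factors followed, where 9 rose and 2 fell of 41 tested (1 and 1 without the replicate block, 4 rose without DOT1L High K3174, 4 fell without NT K3117), with a median log2 difference of 0.09 that was -0.01 with upper quartile factors. Cebpd rose from 22.4 and 26.8 to 54.5 and 65.1 CPM and Cebpb from 50.8 and 66.4 to 120.3 and 88.1 CPM, both factors of inflammatory myeloid cells, and Nfil3, a bZIP repressor, fell from 59.4 and 54.6 to 29.97 and 33.5 CPM. No replicate block was needed for the calls of Sp9, Klf3, Spi1, Elf1, Cebpd and Nfil3, and the calls of Ets1 and Cebpb were lost (adjusted p between 0.050 and 0.10). Cebpb had a log2 difference of 0.43 without NT K3117.

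For helix-loop-helix factors, 5 rose and 4 fell of 39 tested (0 and 0 without the replicate block, 8 fell without NT K3117, 2 fell with genes of at least 5 CPM only, 7 fell with upper quartile factors), with a median log2 difference of 0.03 that was -0.03 with library sizes alone and -0.07 with upper quartile factors. Mxd1 and Mxi1, which compete with MYC for MAX, were at 50.8 and 32.8 CPM in NT and 83.4 and 90.2 CPM in DOT1L High (log2 1.10 ± 0.18, adjusted p = 0.0011) and at 54.9 and 70.3 CPM in NT and 104 and 141 CPM in DOT1L High (log2 0.97 ± 0.12, adjusted p = 0.00014), and Tfec and Mitf of the lysosomal MiT family rose from 41.9 and 55.9 to 96.5 and 107 CPM and from 6.89 and 2.93 to 11.6 and 8.88 CPM. Of the lineage zinc finger, GATA, RUNX and Ikaros list, 6 rose and 6 fell of 51 tested (2 and 0 without the replicate block, 2 rose without DOT1L High K3174, 10 fell without NT K3117, 2 fell with genes of at least 5 CPM only), with a median log2 difference of 0.06 that was -0.03 with upper quartile factors. Gfi1b, a repressor of the erythroid and megakaryocyte lineages, was at 26.2 and 21.4 CPM in NT and 6.67 and 4.34 CPM in DOT1L High (log2 -2.16 ± 0.32, adjusted p = 0.00062). Gata1, an activator of the same lineages, was at 1.98 and 4.25 CPM in NT and 9.43 and 9.83 CPM in DOT1L High (log2 1.68 ± 0.30, adjusted p = 0.0023). These partners moved in opposite directions, with separate groups in each. Zbtb7b rose from 35.1 and 41.5 to 79.7 and 89.3 CPM. Ikzf1 was not called (log2 0.04 ± 0.12, adjusted p = 0.87). Of homeobox genes outside the Hoxa cluster, 5 rose and 5 fell of 41 tested (2 and 0 without the replicate block, 3 rose without DOT1L High K3174, 1 fell without DOT1L High K3117, 3 rose and 3 fell with genes of at least 5 CPM only, 3 fell by DESeq2), with a median log2 difference of -0.04, and Pou2f2, the B cell octamer factor OCT2, fell from 29.1 and 57.6 to 19.1 and 20.5 CPM. Of nuclear receptors and corepressors, 3 rose and 2 fell of 31 tested (0 and 0 without the replicate block, 6 rose without NT K3117, 1 rose without DOT1L High K3174, 1 fell without DOT1L High K3117), with a median log2 difference of 0.07 that was -0.03 with upper quartile factors. Pparg, a receptor of fatty acids, rose from 4.36 and 7.18 to 16.4 and 19.7 CPM, and Vdr, the vitamin D receptor, fell from 11.1 and 14 to 5.16 and 6.43 CPM. In the unblocked fit, without the replicate block, Zbtb7b passed, and the calls of Mxd1, Mxi1, Tfec, Mitf, Gfi1b, Gata1, Pou2f2, Pparg and Vdr were lost (adjusted p between 0.052 and 0.23). Mxd1 had a log2 difference of 0.72 without DOT1L High K3174. Mitf had a log2 difference of 0.72 without NT K3174. Pou2f2 had a log2 difference of -0.64 without NT K3174. Helix-loop-helix factors had 12.8% higher and 10.3% lower, and the lineage zinc finger list 11.8% each way. Homeobox genes had 12.2% each way, and nuclear receptors 9.68% and 6.45%. These lie near the 12.1% and 8.85% of protein-coding genes tested.

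Chromatin regulators had medians near that of all genes. Of Polycomb genes, 4 rose and 6 fell of 42 tested (1 and 1 without the replicate block, 7 rose without NT K3117, 2 rose without DOT1L High K3117 or DOT1L High K3174), with a median log2 difference of -0.04. Cbx2 was at 7.28 and 5.95 CPM in NT and 1.65 and 1.11 CPM in DOT1L High (log2 -2.28 ± 0.29, adjusted p = 0.00020). Epop, a cofactor of PRC2, was at 44.8 and 78.2 CPM in NT and 28.9 and 22.3 CPM in DOT1L High (log2 -1.26 ± 0.25, adjusted p = 0.0041). Cbx2 and Epop were lower in each DOT1L High library than in any NT library. Pcgf5, a core member of a variant PRC1, rose from 34.5 and 45.3 to 60.3 and 73.2 CPM. Of remodellers, 4 rose and 6 fell of 50 tested (0 and 1 without the replicate block, 7 rose without NT K3117, 14 fell without NT K3117), with a median log2 difference of -0.07. Chd3, a subunit of NuRD, was at 198 and 110.4 CPM in NT and 65.9 and 31.5 CPM in DOT1L High (log2 -1.70 ± 0.16, adjusted p = 2.6e-05). Arid1b, a subunit of the BAF complex, was at 215 and 207 CPM in NT and 132 and 115 CPM in DOT1L High (log2 -0.77 ± 0.13, adjusted p = 0.0013). Smarca2, its ATPase BRM, was at 33.3 and 41.6 CPM in NT and 65.6 and 98.8 CPM in DOT1L High (log2 1.11 ± 0.13, adjusted p = 0.00010). None of the 3 overlapped. Arid1a and Chd4, paralogs of Arid1b and Chd3, were not called (log2 -0.31 ± 0.14, adjusted p = 0.16 and log2 -0.23 ± 0.13, adjusted p = 0.27). Calls of Cbx2, Epop, Pcgf5, Chd3, Arid1b and Smarca2 were lost without the replicate block (adjusted p between 0.055 and 0.19). Epop had a log2 difference of -0.62 without NT K3174.

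Of histone acetylation genes, 1 rose and 3 fell of 48 tested (0 and 1 without the replicate block, 3 rose without NT K3117 or NT K3174, 6 fell without NT K3117, 6 fell with upper quartile factors), with a median log2 difference of -0.04. Hdac4 and Hdac9, both class IIa deacetylases, moved in opposite directions, and other members of the class are not given here. Hdac4 was at 26.6 and 19 CPM in NT and 49.2 and 40.7 CPM in DOT1L High (log2 0.99 ± 0.13, adjusted p = 0.00034). Hdac9 was at 7.67 and 7.13 CPM in NT and 3.07 and 3.33 CPM in DOT1L High (log2 -1.21 ± 0.22, adjusted p = 0.0024). Neither had overlapping groups. For histone and DNA methylation enzymes, 4 rose and 3 fell of 67 tested (1 and 1 without the replicate block, 8 rose without NT K3117, 12 fell without NT K3117, 7 fell with library sizes alone, 8 fell with upper quartile factors), with a median log2 difference of -0.03. Dnmt3b, a de novo DNA methyltransferase, was at 36.4 and 41.4 CPM in NT and 15.2 and 12.6 CPM in DOT1L High (log2 -1.50 ± 0.17, adjusted p = 0.00010), and the demethylases Kdm7a and Kdm5b, which act on histone H3 lysine methylation, rose from 16.7 and 15.3 to 30.3 and 39 CPM and from 44.4 and 32.4 to 80.4 and 66.8 CPM. Prmt5, an arginine methyltransferase, fell from 164 and 213 to 119 and 108 CPM. Dnmt1 was not called (log2 0.06 ± 0.12, adjusted p = 0.82). Hdac9, Dnmt3b and Kdm7a passed without the replicate block too, and the calls of Hdac4, Kdm5b and Prmt5 were lost (adjusted p between 0.054 and 0.070). Prmt5 had a log2 difference of -0.46 without NT K3174. Histone acetylation genes had 2.08% higher and 6.25% lower, and methylation enzymes 5.97% and 4.48%. Both lists were called less often than protein-coding genes tested (12.1% and 8.85%).

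**Figure D3:**
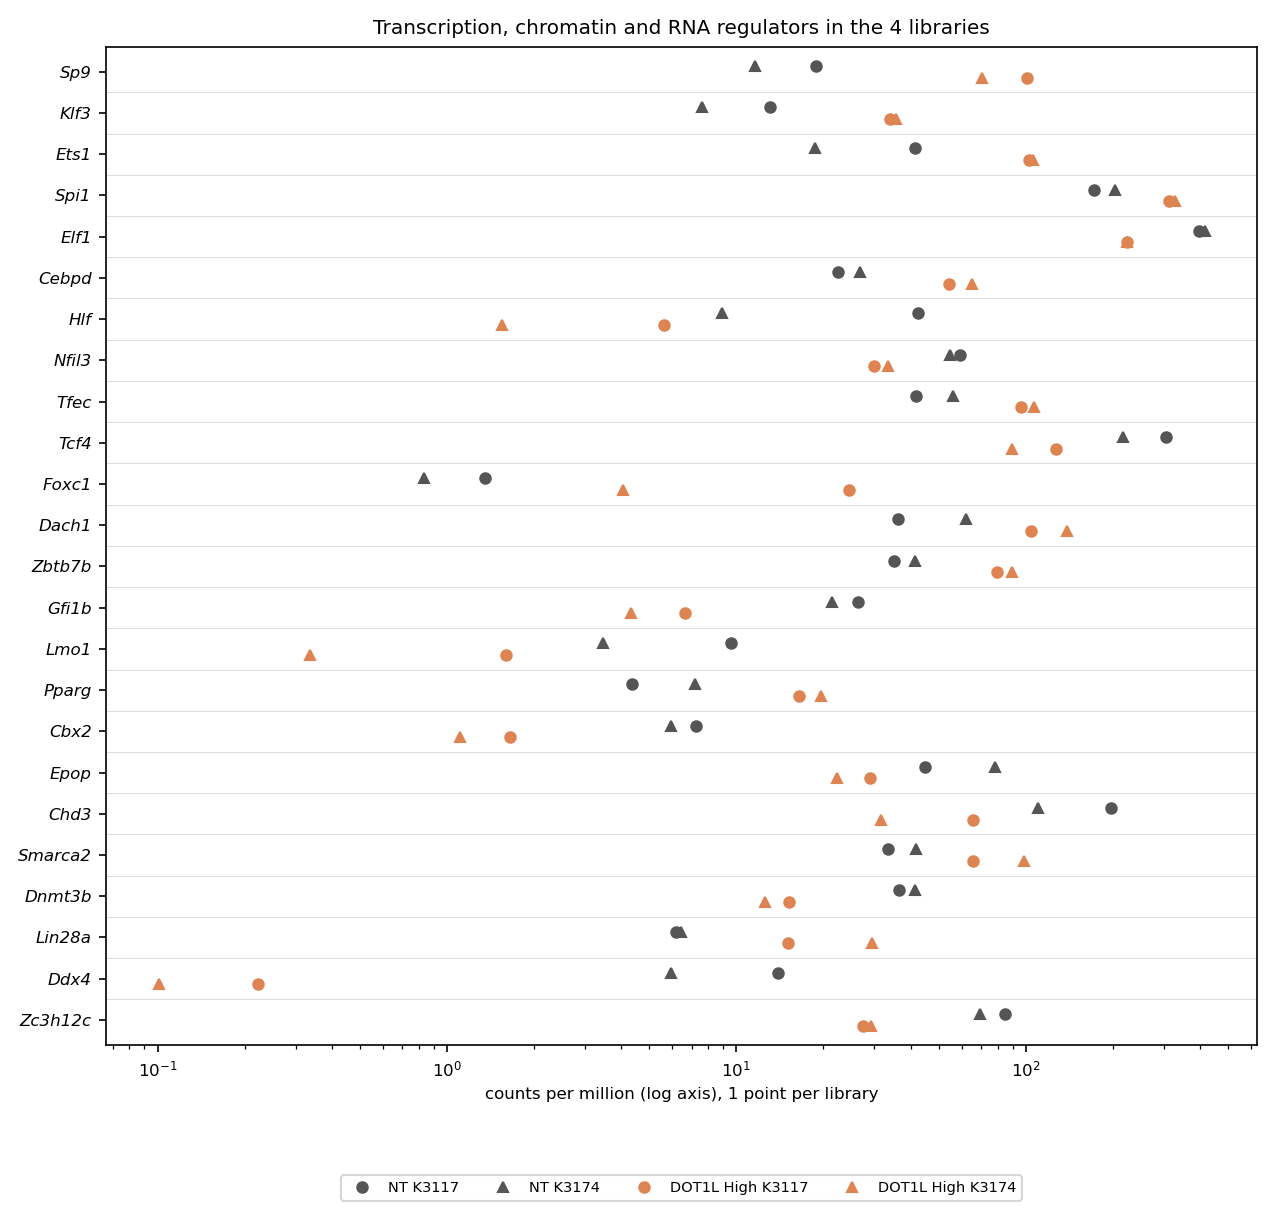
CPM on a log axis for transcription, chromatin and RNA regulators, 1 gene per line, with grey NT and orange DOT1L High points, circles for K3117 and triangles for K3174. Klf3 and Spi1 lie to the right in DOT1L High of both leukemias, and Dnmt3b and Gfi1b to the left.

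Of RNA-binding regulators, 4 rose and 8 fell of 55 tested (2 and 2 without the replicate block, 10 rose without NT K3117, 13 fell without NT K3117, 3 fell without DOT1L High K3174, 13 fell with upper quartile factors), with a median log2 difference of -0.09. Zc3h12c, an mRNA decay factor of the regnase family, was at 84.5 and 69.3 CPM in NT and 27.4 and 29.1 CPM in DOT1L High (log2 -1.44 ± 0.14, adjusted p = 2.9e-05). Cpeb4, a cytoplasmic polyadenylation factor, was at 37.1 and 33.3 CPM in NT and 57.3 and 71.2 CPM in DOT1L High (log2 0.86 ± 0.14, adjusted p = 0.0015). The groups were separate for both. Among cell cycle entry and senescence genes, 5 rose and 3 fell of 40 tested (0 and 0 without the replicate block, 10 rose without NT K3117, 8 fell without NT K3117, 5 fell without DOT1L Low K3117 or DOT1L Low K3174 or DOT1L High K3117, 1 fell with genes of at least 5 CPM only, 5 fell by DESeq2, 3 rose and 5 fell with the 4 libraries alone, 3 rose and 6 fell with library sizes alone, 3 rose and 7 fell with upper quartile factors, 5 fell with relative log expression factors), with a median log2 difference of 0.03 that was -0.02 with library sizes alone and -0.06 with upper quartile factors. The brakes Btg2 and Gadd45a rose from 7.64 and 5.25 to 14.6 and 24.4 CPM and from 9.95 and 19.9 to 37.5 and 49.8 CPM. Ccnd1, cyclin D1, was at 11.2 and 2.41 CPM in NT and 2.13 and 0.505 CPM in DOT1L High (log2 -2.34 ± 0.27, adjusted p = 0.00011). Cdkn2c, an inhibitor of CDK4 and CDK6, fell from 159.6 and 53.1 to 83.3 and 32.6 CPM. A promoter of entry and an inhibitor of it thus both fell, and Cdk4 was not called (log2 -0.31 ± 0.13, adjusted p = 0.12). The groups overlapped for Cdkn2c, because NT K3174 was below DOT1L High K3117, and were apart for Ccnd1. The fit without the replicate block also called Zc3h12c and Cpeb4, and the calls of Btg2, Gadd45a, Ccnd1 and Cdkn2c were lost (adjusted p between 0.073 and 0.56). Btg2 had a log2 difference of 0.98 without NT K3174. RNA-binding regulators had 7.27% higher and 14.5% lower and cell cycle genes 12.5% and 7.5%, beside 12.1% and 8.85% of protein-coding genes tested.

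Several enzymes of the leukotriene and prostaglandin routes rose. Of these enzymes, 7 rose and 3 fell of 28 tested (2 and 1 without the replicate block, 1 fell with genes of at least 5 CPM only), with a median log2 difference of -0.07. Alox5, which starts leukotriene synthesis, was at 42.7 and 44.2 CPM in NT and 122 and 156 CPM in DOT1L High (log2 1.68 ± 0.18, adjusted p = 6.2e-05). Lta4h, which makes leukotriene B4, was at 245 and 252 CPM in NT and 604 and 943 CPM in DOT1L High (log2 1.58 ± 0.18, adjusted p = 9.0e-05). Ptgs1, cyclooxygenase 1, was at 22.5 and 44.7 CPM in NT and 132 and 175 CPM in DOT1L High (log2 2.26 ± 0.16, adjusted p = 3.0e-06). Ptges, the terminal synthase of prostaglandin E2, rose from 5.14 and 3.72 to 18 and 10.3 CPM. Hpgd, which inactivates prostaglandins, was at 739.6 and 692 CPM in NT and 269 and 149 CPM in DOT1L High (log2 -1.83 ± 0.17, adjusted p = 2.6e-05). The makers were higher and the degrading enzyme lower in every DOT1L High library. Dropping the replicate block kept the calls of Alox5 and Hpgd, and the calls of Lta4h, Ptgs1 and Ptges were lost (adjusted p between 0.050 and 0.079).

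For fatty acid synthesis, oxidation and storage, 19 rose and 9 fell of 81 tested (6 and 0 without the replicate block, 18 fell without NT K3117, 5 fell without DOT1L High K3174), with a median log2 difference of 0.06 that was -0.04 with upper quartile factors. Mgll, monoglyceride lipase, was at 2.19 and 2.23 CPM in NT and 17.8 and 28.4 CPM in DOT1L High (log2 3.31 ± 0.25, adjusted p = 6.6e-06). Lipg, endothelial lipase, was at 0.511 and 4.51 CPM in NT and 15.9 and 83.8 CPM in DOT1L High (log2 4.47 ± 0.22, adjusted p = 5.5e-07). Mogat2, which builds diacylglycerol, was at 0.361 and 2.76 CPM in NT and 9.83 and 48 CPM in DOT1L High (log2 4.35 ± 0.24, adjusted p = 6.6e-07). All 3 were higher in every DOT1L High library. Fabp5, a fatty acid carrier, and Slc27a1, a fatty acid transporter, fell from 92.2 and 95.5 to 60.7 and 37.6 CPM and from 44.9 and 16.8 to 11.8 and 7.17 CPM. Fasn and Scd2, enzymes of synthesis and desaturation, were not called (log2 0.03 ± 0.19, adjusted p = 0.94 and log2 0.06 ± 0.16, adjusted p = 0.86). Of lipoprotein receptors and sterol export genes, 11 rose and 3 fell of 34 tested (6 and 0 without the replicate block, 5 fell without NT K3117), with a median log2 difference of 0.29. Sorl1, a sorting receptor, was at 106 and 125 CPM in NT and 395 and 577 CPM in DOT1L High (log2 2.05 ± 0.13, adjusted p = 1.9e-06), Lrp4 rose from 11.5 and 15.8 to 32.7 and 44.5 CPM, and Vldlr fell from 10.6 and 7.97 to 1.65 and 0.976 CPM. When the replicate block was left out, Mgll, Sorl1 and Lrp4 still passed, and the calls of Lipg, Mogat2, Fabp5, Slc27a1 and Vldlr were lost (adjusted p between 0.060 and 0.20).

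Oxidant defence genes changed in both directions, and 15 rose and 9 fell of 59 tested (4 and 0 without the replicate block, 9 rose without DOT1L High K3117, 17 fell without NT K3117), with a median log2 difference of -0.04. Gsr, glutathione reductase, was at 242 and 337 CPM in NT and 771 and 1075 CPM in DOT1L High (log2 1.67 ± 0.12, adjusted p = 4.5e-06). Prdx5, a peroxiredoxin, was at 131 and 142 CPM in NT and 455 and 483 CPM in DOT1L High (log2 1.78 ± 0.12, adjusted p = 2.2e-06), and Mgst2 and Mgst1, microsomal glutathione transferases, rose from 3.13 and 7.0 to 46.7 and 77 CPM and from 3.43 and 4.90 to 21.9 and 45.1 CPM. Sesn3, a sestrin, and Prdx4 fell from 13.3 and 10.1 to 4.36 and 2.52 CPM and from 30.8 and 18.6 to 15.5 and 10.5 CPM. No group overlap was seen in these 6 genes. Of iron, heme and copper genes, 5 rose and 3 fell of 41 tested (3 and 0 without the replicate block, 8 rose without NT K3174, 6 fell without NT K3117, 0 fell without NT K3174, 1 fell without DOT1L High K3174), with a median log2 difference of 0.08 that was -0.01 with upper quartile factors. Slc40a1, the iron exporter ferroportin, was at 1.71 and 1.71 CPM in NT and 28.5 and 55.6 CPM in DOT1L High (log2 4.51 ± 0.24, adjusted p = 6.6e-07). Alas1, the rate-limiting enzyme of heme synthesis outside red cells, was at 165 and 192 CPM in NT and 424 and 439 CPM in DOT1L High (log2 1.28 ± 0.12, adjusted p = 2.3e-05). Tfrc and Fth1, for iron uptake and storage, were not called (log2 0.08 ± 0.14, adjusted p = 0.76 and log2 -0.05 ± 0.16, adjusted p = 0.88). Iron, heme and copper genes had 12.2% higher and 7.32% lower, near the 12.1% and 8.85% of protein-coding genes tested. Calls that did not need the replicate block were those of Gsr, Prdx5, Mgst2, Slc40a1 and Alas1, and the calls of Mgst1, Sesn3 and Prdx4 were lost (adjusted p between 0.068 and 0.30).

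In serine, one-carbon and nucleotide metabolism, 4 rose and 5 fell of 58 tested (2 and 1 without the replicate block, 7 rose without NT K3117 or NT K3174, 15 fell without NT K3117, 3 fell without NT K3174, 2 fell without DOT1L High K3174, 2 rose with genes of at least 5 CPM only, 1 fell with the 4 libraries alone, 8 fell with library sizes alone, 12 fell with upper quartile factors), with a median log2 difference of -0.08. Gda, guanine deaminase, was at 202 and 220.4 CPM in NT and 614 and 623 CPM in DOT1L High (log2 1.55 ± 0.13, adjusted p = 9.7e-06). Nt5e, the ectoenzyme CD73 that makes adenosine, was at 13.5 and 16.6 CPM in NT and 39 and 44.9 CPM in DOT1L High (log2 1.48 ± 0.15, adjusted p = 3.5e-05). Aldh1l2, a mitochondrial folate enzyme, was at 8.63 and 11.5 CPM in NT and 2.09 and 2.63 CPM in DOT1L High (log2 -2.09 ± 0.21, adjusted p = 4.4e-05). The 3 genes had separate groups. The list of these 3 genes had 6.90% higher and 8.62% lower, beside 12.1% and 8.85% of protein-coding genes tested. Of aldehyde dehydrogenases, aldo-keto reductases and cytochromes P450, 6 rose and 9 fell of 36 tested (1 and 1 without the replicate block, 5 fell without NT K3174, 3 fell without DOT1L High K3174, 5 fell with the 4 libraries alone), with a median log2 difference of -0.08. Among those that rose, Cyp11a1, which cleaves the side chain of cholesterol, was at 15.2 and 37 CPM in NT and 76.2 and 109 CPM in DOT1L High (log2 1.91 ± 0.22, adjusted p = 0.00010). Cyp26a1, which degrades retinoic acid, was at 0.0601 and 0.350 CPM in NT and 3.20 and 12.9 CPM in DOT1L High (log2 5.44 ± 0.52, adjusted p = 2.8e-05). Hsd11b1, which regenerates active glucocorticoid, was at 3.07 and 1.49 CPM in NT and 19.9 and 37.4 CPM in DOT1L High (log2 3.47 ± 0.39, adjusted p = 9.4e-05). Each of these 3 was higher in every DOT1L High library than in any NT library. Car2, carbonic anhydrase 2, rose from 6.67 and 7.49 to 47.4 and 39.5 CPM. No replicate block was needed for the calls of Gda, Nt5e, Aldh1l2, Hsd11b1 and Car2, and the calls of Cyp11a1 and Cyp26a1 were lost (adjusted p between 0.073 and 0.13).

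Lysosome and autophagy genes were more often higher than lower, as 20 rose and 2 fell of 67 tested (4 and 0 without the replicate block, 9 rose without DOT1L High K3117, 11 rose without DOT1L High K3174, 1 fell without DOT1L High K3117 or DOT1L High K3174, 1 fell with the 4 libraries alone, 13 rose with library sizes alone, 12 rose with upper quartile factors), with a median log2 difference of 0.20. Atp6v1e1, a subunit of the proton pump, was at 132 and 129.7 CPM in NT and 224 and 237 CPM in DOT1L High (log2 0.81 ± 0.13, adjusted p = 0.00087). Dram1, a p53-inducible lysosomal protein, was at 49.6 and 49.7 CPM in NT and 121 and 96.7 CPM in DOT1L High (log2 1.13 ± 0.13, adjusted p = 0.00011). Tecpr1, a tether of autophagosomes, fell from 20.1 and 16.2 to 9.43 and 8.88 CPM. For sphingolipid and ganglioside genes, 18 rose and 6 fell of 49 tested (4 and 2 without the replicate block, 10 rose without DOT1L High K3117, 3 fell without DOT1L High K3117, 3 fell with genes of at least 5 CPM only), with a median log2 difference of 0.15. B4galt6, a lactosylceramide synthase, rose from 37.1 and 64.4 to 116 and 182 CPM and Smpdl3a, an acid sphingomyelinase-like enzyme, from 18.4 and 9.46 to 38.5 and 36.1 CPM, while Smpd1, acid sphingomyelinase itself, was at 26.4 and 36.8 CPM in NT and 14.2 and 15 CPM in DOT1L High (log2 -1.10 ± 0.18, adjusted p = 0.0014). The sphingosine 1-phosphate exporters diverged, with Spns2 down from 80.9 and 91.3 to 50.8 and 43.5 CPM and Mfsd2b up from 2.13 and 2.63 to 5.74 and 5.55 CPM. None of these genes overlapped. In the unblocked fit, without the replicate block, Atp6v1e1, Dram1 and Smpd1 passed, and the calls of Tecpr1, B4galt6, Smpdl3a, Spns2 and Mfsd2b were lost (adjusted p between 0.065 and 0.16). Spns2 had a log2 difference of -0.51 without NT K3174.

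Of interleukins, TNF ligands and growth factors, 14 rose and 5 fell of 52 tested (3 and 0 without the replicate block, 9 rose without DOT1L High K3174, 8 fell without NT K3117, 8 rose and 3 fell with genes of at least 5 CPM only), with a median log2 difference of 0.19. Ebi3 and Il12a encode the chains of interleukin 35, and they moved oppositely. Ebi3 was at 8.0 and 8.27 CPM in NT and 24.1 and 24.6 CPM in DOT1L High (log2 1.58 ± 0.16, adjusted p = 4.5e-05). Il12a was at 25.1 and 11.8 CPM in NT and 9.56 and 4.81 CPM in DOT1L High (log2 -1.34 ± 0.19, adjusted p = 0.00051). Il15 rose from 1.29 and 1.40 to 3.87 and 7.03 CPM. Angpt1, the TIE2 ligand angiopoietin 1, was at 121 and 70.8 CPM in NT and 60.5 and 38.7 CPM in DOT1L High (log2 -0.94 ± 0.12, adjusted p = 0.00028). Ebi3 and Il15 were apart between groups, as were Il12a and Angpt1. Of the chemokines, 6 rose and 2 fell of 16 tested (0 and 0 without the replicate block, 4 fell without NT K3117, 1 fell without NT K3174 or DOT1L Low K3117 or DOT1L Low K3174 or DOT1L High K3174, 3 rose and 1 fell with genes of at least 5 CPM only, 1 fell by DESeq2, 1 fell with the 4 libraries alone), with a median log2 difference of 0.51. The neighbours Ccl6 and Ccl9 split, at 35.5 and 12 CPM in NT and 97.2 and 61.2 CPM in DOT1L High (log2 1.92 ± 0.23, adjusted p = 0.00013) and at 450.3 and 160.4 CPM in NT and 209.9 and 94.1 CPM in DOT1L High (log2 -0.94 ± 0.12, adjusted p = 0.00029), with overlap of the groups for Ccl9. Of proteases and serpins, 18 rose and 8 fell of 57 tested (5 and 0 without the replicate block, 14 fell without NT K3117), with a median log2 difference of 0.14. F5, coagulation factor V, was at 6.86 and 7.66 CPM in NT and 55.2 and 91.7 CPM in DOT1L High (log2 3.27 ± 0.21, adjusted p = 2.2e-06), Plau, urokinase, rose from 1.32 and 1.40 to 3.38 and 6.80 CPM, and Serpinb9, an inhibitor of granzyme B, fell from 9.74 and 5.65 to 2.45 and 1.41 CPM. Without the replicate block, Ebi3 and F5 also passed, and the calls of Il12a, Il15, Angpt1, Ccl6, Ccl9, Plau and Serpinb9 were lost (adjusted p between 0.076 and 0.44).

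Among solute carriers, 36 rose and 30 fell of 231 tested (8 and 4 without the replicate block, 54 fell without NT K3117, 19 fell without DOT1L High K3174, 19 fell with genes of at least 5 CPM only), with a median log2 difference of 0.03 that was -0.03 with library sizes alone and -0.07 with upper quartile factors. Slc6a12, a betaine transporter, was at 1.38 and 1.01 CPM in NT and 13.2 and 13.7 CPM in DOT1L High (log2 3.44 ± 0.31, adjusted p = 2.0e-05). Slc32a1, the vesicular transporter of GABA and glycine, was at 2.16 and 2.32 CPM in NT and 12.8 and 12.9 CPM in DOT1L High (log2 2.52 ± 0.21, adjusted p = 1.1e-05). The amino acid transporters Slc43a1 and Slc1a4 fell from 7.28 and 4.46 to 1.65 and 1.25 CPM and from 26.1 and 24.2 to 12.3 and 11.8 CPM. The groups were separate in all 4. Of ion channels, 14 rose and 15 fell of 76 tested (7 and 1 without the replicate block, 7 fell with genes of at least 5 CPM only), with a median log2 difference of -0.16. Hvcn1, the voltage-gated proton channel that supports the oxidative burst, was at 8.78 and 13 CPM in NT and 35.9 and 54.3 CPM in DOT1L High (log2 2.05 ± 0.15, adjusted p = 5.5e-06), Tmc7 rose from 2.16 and 2.93 to 22.3 and 31.6 CPM and Scnn1a, a subunit of the epithelial sodium channel, from 1.74 and 1.31 to 11.4 and 9.96 CPM, whereas the potassium channel Kcna3 fell from 11.7 and 11.1 to 3.33 and 1.88 CPM. Of ABC transporters, 9 rose and 6 fell of 33 tested (3 and 1 without the replicate block, 11 fell without NT K3117), with a median log2 difference of -0.09. Abcd2, a peroxisomal transporter, rose from 23.5 and 21.1 to 61.2 and 78.4 CPM, and Abcc5 from 31.1 and 25.2 to 60.9 and 70.2 CPM. Of glycosyltransferases, 10 rose and 14 fell of 75 tested (2 and 3 without the replicate block, 5 rose without DOT1L High K3117 or DOT1L High K3174, 6 rose with upper quartile factors), with a median log2 difference of -0.00. Chst11, a chondroitin sulfotransferase, rose from 24.4 and 29.4 to 90.7 and 93.7 CPM, and Fut8, which adds core fucose, fell from 598 and 589 to 361 and 318 CPM. Slc6a12, Slc32a1, Slc43a1, Slc1a4, Hvcn1, Tmc7, Scnn1a, Abcd2, Abcc5, Chst11 and Fut8 passed without the replicate block too, and the call of Kcna3 was lost (adjusted p = 0.055).

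Genes that prepare peptides for MHC class I fell together in their neighbourhood on chromosome 17. Psmb8 and Psmb9, catalytic subunits of the immunoproteasome, were at 95.2 and 121 CPM in NT and 43.4 and 36.8 CPM in DOT1L High (log2 -1.44 ± 0.16, adjusted p = 0.00010) and at 45 and 40.6 CPM in NT and 18.9 and 16.5 CPM in DOT1L High (log2 -1.28 ± 0.14, adjusted p = 9.5e-05). The peptide transporter subunits Tap1 and Tap2 were at 82.6 and 68 CPM in NT and 35.5 and 31.5 CPM in DOT1L High (log2 -1.16 ± 0.15, adjusted p = 0.00024) and at 144 and 150.5 CPM in NT and 65.9 and 57.6 CPM in DOT1L High (log2 -1.26 ± 0.14, adjusted p = 6.7e-05). Each of the 4 was lower in every DOT1L High library than in any NT library. H2-Ob, a chain of the class II regulator DO, fell from 13 and 8.40 to 1.56 and 0.841 CPM, and the class I genes H2-Q6 and H2-Q7, which are near-identical so that reads may be split between them, from 9.98 and 3.02 to 1.02 and 0.135 CPM and from 7.49 and 1.88 to 0.889 and 0.168 CPM. The fit without the replicate block also called Psmb8, Psmb9, Tap2 and H2-Ob, and the calls of Tap1, H2-Q6 and H2-Q7 were lost (adjusted p between 0.064 and 0.18).

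Psmb9 and Tap1 lie head to head, and their promoter windows share bases, so the Tap1 window is printed with the 275 bases that are also in the window of Psmb9 in capitals. It is from RefSeq on GRCm38.p6 and holds no match of TTGCNNAA.
Tap1, chr17:34187306-34187605, plus strand: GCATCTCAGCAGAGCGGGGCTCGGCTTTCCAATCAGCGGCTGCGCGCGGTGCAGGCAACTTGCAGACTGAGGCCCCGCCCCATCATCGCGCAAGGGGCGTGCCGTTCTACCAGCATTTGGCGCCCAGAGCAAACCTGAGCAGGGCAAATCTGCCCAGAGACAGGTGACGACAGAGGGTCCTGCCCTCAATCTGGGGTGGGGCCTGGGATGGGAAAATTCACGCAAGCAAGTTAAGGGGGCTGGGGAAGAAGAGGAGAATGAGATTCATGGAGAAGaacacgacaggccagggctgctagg
B2m, the light chain of class I molecules, chosen after its values were seen, was at 468 and 305 CPM in NT and 459 and 342 CPM in DOT1L High and was not called (log2 0.07 ± 0.12, adjusted p = 0.79).

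Of Schlafen, guanylate-binding and immunity GTPase genes, 3 rose and 14 fell of 27 tested (2 and 0 without the replicate block, 8 fell without NT K3117 or DOT1L High K3117, 6 fell with genes of at least 5 CPM only), with a median log2 difference of -0.65. Slfn2, a growth regulator of immune cells, was at 30.7 and 14.4 CPM in NT and 78.3 and 86 CPM in DOT1L High (log2 1.92 ± 0.24, adjusted p = 0.00016). Slfn4 was at 11.5 and 2.06 CPM in NT and 19 and 6.02 CPM in DOT1L High (log2 1.07 ± 0.23, adjusted p = 0.0064). Gimap6 and Gimap1, GTPases of lymphocyte survival, were at 30.4 and 11.5 CPM in NT and 7.42 and 2.39 CPM in DOT1L High (log2 -2.14 ± 0.19, adjusted p = 1.9e-05) and at 10.4 and 5.69 CPM in NT and 3.56 and 1.08 CPM in DOT1L High (log2 -1.94 ± 0.29, adjusted p = 0.00060). Slfn2 had separate groups, while Slfn4 did not, since DOT1L High K3174 was below NT K3117. Dropping the replicate block kept the calls of Slfn2, and the calls of Slfn4, Gimap6 and Gimap1 were lost (adjusted p between 0.23 and 0.69).

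Some called genes were neighbours. Among 12378 protein-coding genes tested, 15 runs of at least 4 neighbours that were all higher and 10 that were all lower held 117 genes, on GENCODE positions of GRCm38. The Trem run at chr17:48125605-48354147 held 8 higher genes with a median log2 difference of 2.03, and the run from Siglecf to Cldnd2 at chr7:43351341-43443334 held 4 with a median of 2.07. The run from Exoc6 to Myof at chr19:37550418-38043577, which holds both Cyp26a1 and Cyp26c1, had a median of 2.86. In the run of Ankrd22 and Fas at chr19:34121469-34327772, Ankrd22 had no count in NT and was raised at least 53.8-fold (floor of 3 counts in each library). Lower runs included Psmb9 to H2-Ab1 at chr17:34181987-34269419 (6 genes, median -1.30), 4 Gimap genes at chr6:48684549-48754210 (median -2.47), 4 H2-Q genes at chr17:35379617-35474563 (median -3.41) and Rundc3b with Abcb1a, Abcb1b and Abcb4 at chr5:8490334-8959231 (median -2.45). Genes within a run of paralogs can share reads, which applies to the H2-Q and Abcb1 genes. Single calls within these runs were not stable. Treml4 did not pass when any 1 library was left out (adjusted p between 0.080 and 0.18), nor Cldnd2 for any library but NT K3117 (between 0.078 and 0.32). Treml2 did not pass without NT K3174 (0.13), DOT1L High K3117 (0.054) or DOT1L High K3174 (0.33), and Cyp26c1 did not without NT K3174 (0.074). Gimap4 was lost without NT K3117 (0.80), DOT1L Low K3117 (0.14), DOT1L Low K3174 (0.11) or DOT1L High K3117 (0.71). H2-Q10 was lost without NT K3117 (0.050), NT K3174 (0.089), DOT1L Low K3117 (0.053) or DOT1L High K3117 (0.19).

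**Figure D4:**
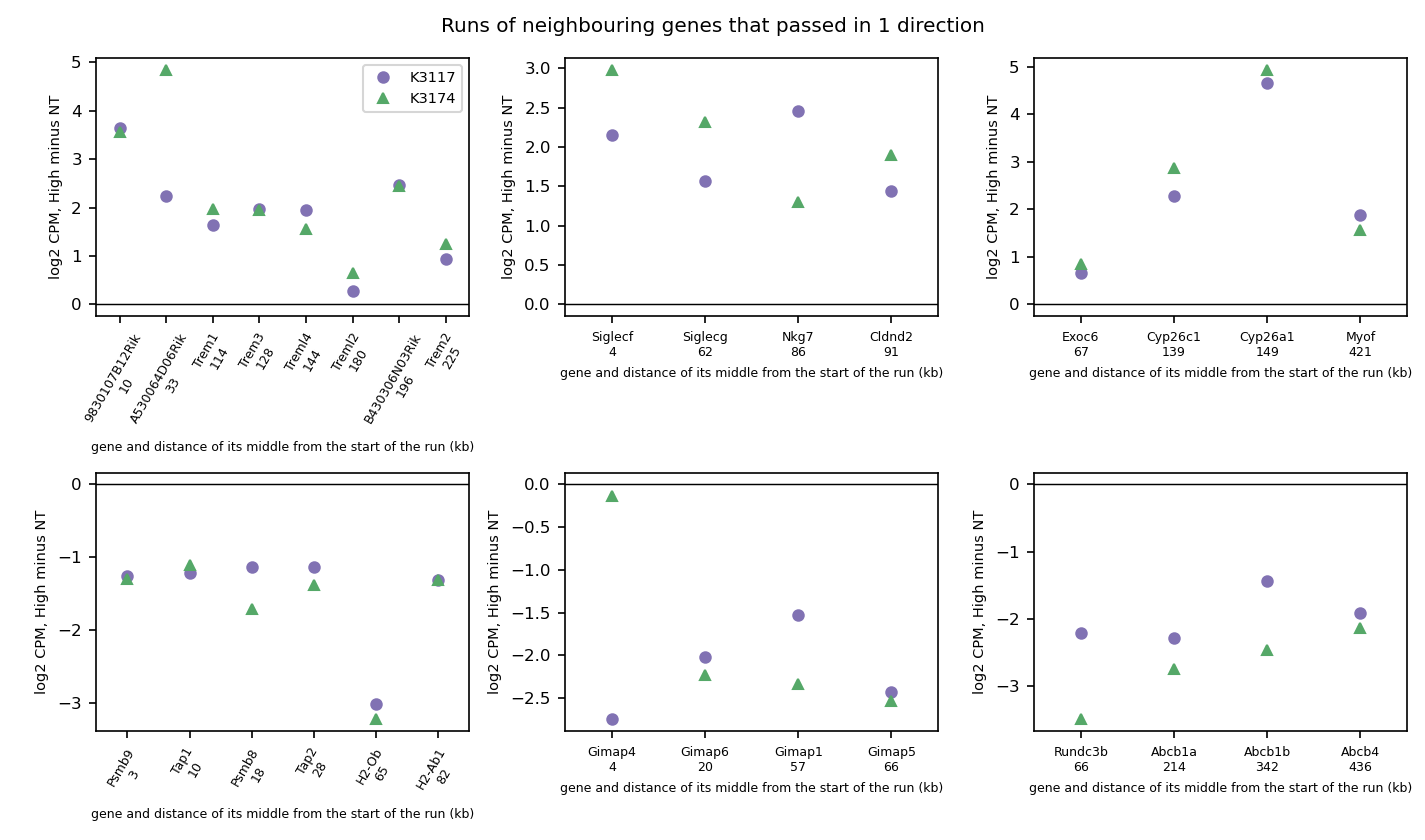
Log2 CPM of DOT1L High minus NT in K3117 (circles) and K3174 (triangles) for the genes of 6 runs, in their order along the chromosome, with the distance of the middle of each gene from the start of its run in kb under its name. Genes of a run lie on 1 side of 0, which the definition of a run requires of their fitted difference.

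At an imprinted locus on chromosome 12, Dlk1, Meg3 and Rian fell. Dlk1 at chr12:109452823-109463336, a paternally expressed gene, was described above. The noncoding RNA Meg3 at chr12:109541001-109571726 was at 0.421 and 21.8 CPM in NT and 0.0889 and 1.08 CPM in DOT1L High (log2 -4.01 ± 0.47, adjusted p = 0.00012). The noncoding RNA Rian at chr12:109603940-109661716 was at 2.92 and 56.8 CPM in NT and 0.356 and 2.52 CPM in DOT1L High (log2 -4.15 ± 0.31, adjusted p = 5.7e-06). Mirg at chr12:109729764-109749460, a noncoding RNA named after its values were seen, was at 0.0601 and 2.71 CPM in NT and 0 and 0.0673 CPM in DOT1L High. Meg3, Rian and Mirg were much more abundant in NT K3174 than in NT K3117. Within each leukemia Meg3 and Rian were lower in DOT1L High, and Mirg was lower in K3174. In K3117 Mirg cannot be compared, as NT was below the floor of 3 counts (0.0902 CPM) and DOT1L High had no count. Meg3 in DOT1L High K3117 was also below that floor (0.133 CPM there). When the replicate block was left out, Dlk1 still passed, and the calls of Meg3 and Rian were lost (adjusted p between 0.24 and 0.31). Meg3 had a log2 difference of -2.22 without NT K3174.

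The size of a difference varied between the leukemias for some named genes. Given here are the 12 widest gaps among named genes that passed the threshold and had a group mean of at least 10 CPM. Alcam, an adhesion molecule that binds CD6, had log2 CPM differences of 0.79 in K3117 and 4.12 in K3174. Plxnb2, a semaphorin receptor, was at -0.25 and -2.37, and Hsd11b1 at 2.67 and 4.59. Meg3 was at -1.63 and -4.25, and Rian at -2.81 and -4.45. In the other direction Foxc1, a forkhead factor, had differences of 4.11 in K3117 and 2.20 in K3174, Ptger3 of 3.36 and 1.84, and Col4a1, a basement membrane collagen, of 3.26 and 1.72. Hbb-bt was at -2.19 and -0.66. The granule and stefin genes set aside from the members, Mpo, Chil3 and BC100530, were at 4.90 and 2.01, at 6.17 and 3.44 and at 6.37 and 4.16. Each of these kept 1 direction in both leukemias. The fitted difference of Alcam was 4.07 without NT K3117, 3.14 without DOT1L High K3117, 1.34 without DOT1L High K3174 and 0.97 without NT K3174, beside 2.25 over all libraries. Plxnb2 was at -1.37 over all libraries, -2.20 without NT K3117, -2.06 without DOT1L High K3117 and -0.67 without DOT1L High K3174, and it did not pass without NT K3174 (-0.40, adjusted p = 0.097). DESeq2 did not call Alcam (adjusted p = 0.16) or Plxnb2 (0.22), and without the replicate block neither passed (0.15 and 0.16). With 1 library per label in each leukemia, the difference between leukemias was not tested.

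**Figure D5:**
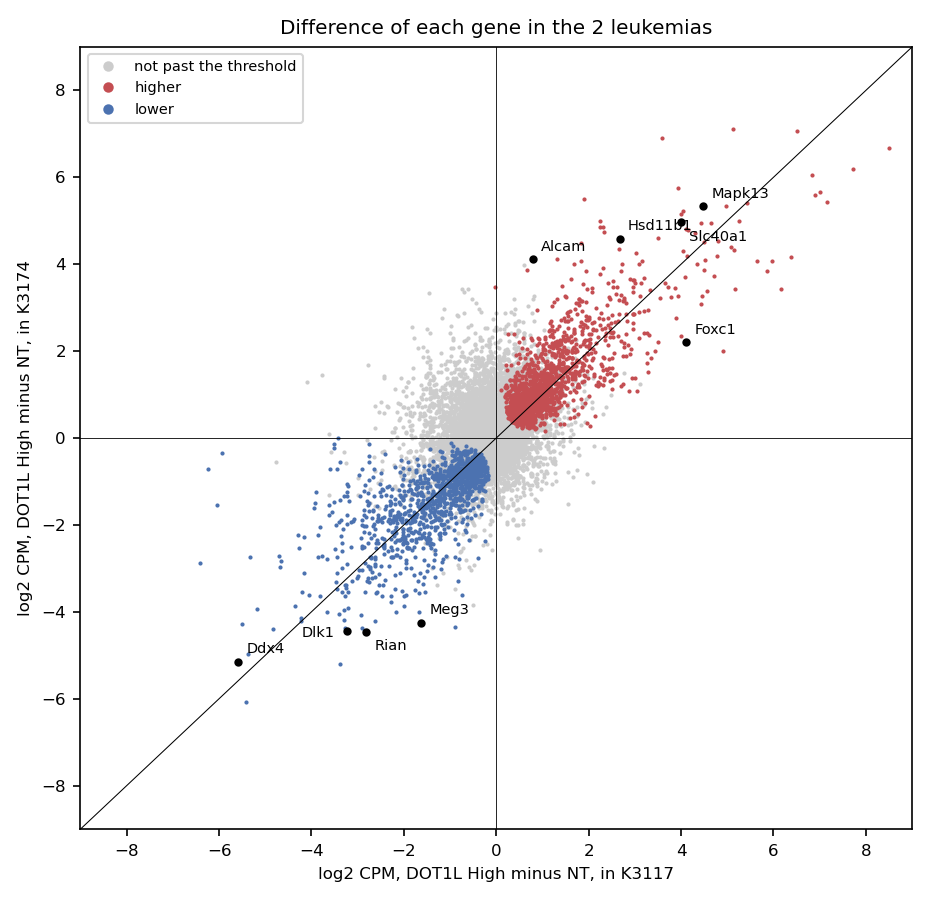
Log2 CPM of DOT1L High minus NT in K3174 against that in K3117, 1 point per gene tested, coloured by whether the gene was higher, lower or not past the threshold, with the line of equal difference. Of the genes marked by name Alcam lies farthest from the line, at 0.79 in K3117 and 4.12 in K3174.

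Shares of called genes differed by the kind of gene. Protein-coding genes were called higher in 12.1% and lower in 8.85% of 12378, long intergenic noncoding RNAs in 6.42% and 5.08% of 374, antisense RNAs in 5.26% and 1.91% of 418, and processed pseudogenes in 0.40% and 0.54% of 1493. By chromosome the share of higher genes was between 6.95% on X and 13.8% on 19, and that of lower genes between 6.36% on 7 and 9.22% on 15. KRAB and other Zfp genes had a median near 0, as 11 rose and 13 fell of 322 tested (0 and 0 without the replicate block, 36 rose without NT K3117, 3 rose without DOT1L High K3174, 26 fell without NT K3117, 23 fell without NT K3174, 5 fell without DOT1L High K3117, 6 rose and 25 fell with library sizes alone, 4 rose and 37 fell with upper quartile factors), with a median log2 difference of -0.06. Of the 67 lists and families counted, 22 had a median above 0.1 on the log2 scale and 9 below -0.1, and 13 medians changed sign with the scaling. At least 2 times the share of calls over all genes tested (17.3%) was seen in 30 of them. That share includes the seldom called pseudogenes, whereas the families hold protein-coding genes only, which were called more often. The lists were also chosen with earlier results known, so the count of 30 is a description only. Antisense and overlapping genes cannot be told apart where counting did not use strand, which is not given in the sources used here.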

How the data were processed

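The authors deposited whole-number counts per gene for 6 libraries (1 for each of 3 labels in each of 2 leukemias), read in pairs of 150 bp per the labels, and these counts entered the analysis unchanged. Per the submitters' processing notes the genome build was mm10, and the tools listed, without versions or roles, were STAR, STAR-Fusion, kallisto and DESeq2. Which tool counted reads, with which annotation and whether by strand, is not given in the sources used here, so reads of near-identical paralogs and of overlapping or antisense genes may be misassigned.

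Of 49585 gene IDs in the table, 23286 were without reads and 259 matched no GENCODE symbol. In R 4.3.3 with edgeR 4.0.16, filterByExpr kept 15812 genes, and TMM factors were between 0.973 and 1.04. All 6 libraries entered 1 quasi-likelihood model of label and, as block, leukemia (2 residual and 9.38 prior degrees of freedom, common biological coefficient of variation 12%), so that the groups share 1 estimate of the spread. P-values were adjusted by Benjamini-Hochberg over all genes tested, with a threshold of 0.05, and the SE was derived as the log2 fold change over the square root of F. For log2 CPM differences per leukemia 2 counts were added as prior. The block follows the K numbers of the titles. Over genes, same-numbered libraries deviated together from their groups, with r of 0.44 between NT and DOT1L High, 0.57 between NT and DOT1L Low and 0.64 between DOT1L Low and DOT1L High. Every pair of libraries differed by more than sampling noise (lowest chi-square per degree of freedom 26.9). The procedure was tested on simulated data.

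The members, gene lists and families were chosen with earlier results of these data known, so a list is described by its counts and median and was not tested. Named genes are Dot1l, the 12 genes with the largest rise and the 12 with the largest fall outside the excluded lists (higher group's mean at 10 CPM or more), up to 4 rising and 4 falling genes of each list (5 CPM or more), the 2 most abundant members of each list, and members of runs. Examples were then picked among these after their values were seen. Some of these genes and a gene list are not reported here. Alternatives were the fit without the block, the 4 libraries alone, 3 other scalings, DESeq2 1.42.0, 2 other filters and leaving out each library. Depth limits precision for genes of few counts, where 3 counts a library served as the floor of a group without reads. The floor covers counting error only. Standard errors cover counting error and the spread among these libraries, which may be technical.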

Additional observations from a re-analysis of the deposited data

Results flagged for a closer look

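Cell cycle entry and senescence genes had a median log2 CPM difference of -0.105 between DOT1L High and NT in K3117 and of 0.157 in K3174. The medians lay on opposite sides of 0, and the difference between the leukemias was not tested. With 1 library per label in each leukemia, the spread of this median between samples is unknown.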

How the results depend on the processing

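Without the replicate block 493 genes passed, 354 higher and 139 lower, and 400 of the 537 named calls were lost, so most calls depend on comparing libraries within a leukemia. Leaving out 1 library in turn gave between 1927 and 4394 called genes, between 1028 and 2338 higher and between 899 and 2056 lower. The highest counts came without NT K3117 and the lowest number of calls without DOT1L High K3174, and for lower genes 899 was also the count without DOT1L High K3117. The lone sample of a group is then assumed to vary like the others. With genes of at least 5 CPM in at least 2 libraries only, 726 genes were lower, of fewer genes tested (10258). The total was between 1974 and 3369 under the alternatives that kept the block and all 6 libraries, and 2269 with the 4 libraries alone. DESeq2 called 2433 genes. No named call reversed its direction, and 378 of the 537 passed under every alternative that kept the block. Apart from the block, named calls were lost most often without DOT1L High K3174 (116) and without DOT1L High K3117 (81), and the cause was not tested. Library sizes alone and upper quartile factors shifted the median of all genes to -0.07 and -0.11, so small decreases are the differences most exposed to the scaling.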
